A study of Homo sapiens with 24 samples.

Results

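The transcription factors CDX1, CDX2, HNF4A, GATA6, FOXA1, FOXA2, PPARG and VDR, which govern intestinal epithelial identity, were followed in colorectal cancer (CRC) cells. All non-control probes carrying the name of 1 of these 8 genes were taken, which gave 10 of the 34127 non-control probes on the array. CDX1 and PPARG had 2 probes each. After a filter on dim probes, 18980 probes for 15159 genes were tested, and 8 probes for 7 of the 8 factors were among them. The single probe of HNF4A and 1 of the CDX1 probes did not pass.

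HCT-116 cells, a human CRC line, were profiled on 24 one-colour arrays from 6 experiments with 4 treatments each. All cells came from 1 clone that carried a Tet repressor and a doxycycline-inducible, FLAG-tagged dominant negative Tcf4 (DN-Tcf4), so the untreated cells held both transgenes too. Ctl cells received neither agent, NaB cells 5 mM sodium butyrate for 17.5 hr, Doxy cells 4 µg/ml doxycycline, and DoxyNaB cells both agents. The comparisons asked how the factors responded to butyrate, and whether that response differed when DN-Tcf4, an inhibitor of Wnt signaling, was induced.

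CDX1 and CDX2 are homeodomain proteins that specify intestinal rather than gastric epithelium. HNF4A, GATA6 and the forkhead proteins FOXA1 and FOXA2 act with them on enterocyte and secretory genes, while PPARG and VDR are nuclear receptors that pair with retinoid X receptors and answer to fatty acids and to vitamin D. Butyrate, a fermentation product of dietary fiber, inhibits histone deacetylases, and DN-Tcf4 occupies Tcf sites without recruiting beta-catenin.

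The label of the cells was set against 10 colon epithelial markers. EPCAM, CDH1, KRT8, KRT18 and KRT19 passed the filter, whereas KRT20, VIL1, CDH17, LGALS4 and GPA33, markers of mature colonocytes, did not. KRT20 was well above background on 2 of 6 Ctl and 5 of 6 NaB arrays, and VIL1 and CDH17 on 0 of 6 Ctl arrays. AXIN2, a direct Wnt target, rose with butyrate by 1.19 ± 0.29 (SD, n = 6) on the log2 scale, and the response with doxycycline was lower by 1.95 ± 0.42 (limma, adjusted p = 8.26e-08 for the interaction, lower in 6 of 6 experiments). The rise was not called with normexp background correction (0.97) or with scaling to the median of the array (0.28, adjusted p = 0.31), and the interaction was -1.69 and not called with the latter. The arrays of experiments 2 to 4 had between 78.3% and 88.1% of their spots well above background, against 52.5% to 62.4% in the other experiments. Mean negative control signals lay between 69.1 and 248.9 on the butyrate arrays of experiments 2 to 4 and between 63.1 and 79.6 on their arrays without butyrate. In experiment 1 the butyrate arrays had another slide and another scan date than the arrays without butyrate. Slide, scan date and butyrate cannot be told apart there.

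The reference promoter sequences are shown for 3 of the factors, CDX2, PPARG and FOXA1, to set the DNA next to the response. Promoter windows from RefSeq (GRCh38.p14) were used for 5 of the 8 factors, 11 windows in all, of which 6 belonged to alternative starts of PPARG; those of CDX1, FOXA2 and VDR were not analysed here. Each line gives the 250 bases before a start, 5′ to 3′ on the strand of the gene. Capitals mark matches on either strand to the TCF/LEF cores CTTTGA and CTTTGT, to the CDX motif TTTATN and to the GATA cores AGATAA and TGATAA. In CDX2 a CDX match and a GATA match share bases.
CDX2, chr13:27969316-27969565, minus strand: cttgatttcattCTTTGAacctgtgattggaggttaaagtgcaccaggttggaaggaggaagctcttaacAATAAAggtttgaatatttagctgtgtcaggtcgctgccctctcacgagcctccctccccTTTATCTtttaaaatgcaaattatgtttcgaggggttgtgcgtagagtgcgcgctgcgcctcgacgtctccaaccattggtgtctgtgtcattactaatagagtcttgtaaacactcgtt
PPARG, chr3:12288820-12289069, plus strand: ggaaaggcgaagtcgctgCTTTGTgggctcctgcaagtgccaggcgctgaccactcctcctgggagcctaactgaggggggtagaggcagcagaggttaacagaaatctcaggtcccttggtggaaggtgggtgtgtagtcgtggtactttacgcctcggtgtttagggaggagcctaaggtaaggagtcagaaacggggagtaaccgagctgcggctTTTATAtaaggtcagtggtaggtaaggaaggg
PPARG, chr3:12351167-12351416, plus strand: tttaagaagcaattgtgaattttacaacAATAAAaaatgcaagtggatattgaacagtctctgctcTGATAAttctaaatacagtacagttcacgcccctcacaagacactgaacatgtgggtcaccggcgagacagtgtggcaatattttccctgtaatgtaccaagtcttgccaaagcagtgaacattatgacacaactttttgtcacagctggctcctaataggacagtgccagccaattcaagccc
FOXA1, chr14:37595250-37595499, minus strand: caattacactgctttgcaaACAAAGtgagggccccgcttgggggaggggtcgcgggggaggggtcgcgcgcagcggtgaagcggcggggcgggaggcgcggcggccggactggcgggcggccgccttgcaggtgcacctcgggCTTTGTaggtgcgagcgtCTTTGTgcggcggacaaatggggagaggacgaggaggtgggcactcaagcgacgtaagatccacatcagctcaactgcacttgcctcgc

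Over the full 300-base windows, CTTTGA occurred 1 time in CDX2 and CTTTGT 3 times in FOXA1. These cores were in 12.9% and 16.1% of the 35116 promoter windows, and 26.2% held at least 1 of the cores. The windows of GATA6 and HNF4A held neither core, so the factors printed above are those with a TCF/LEF match in at least 1 window. The printed PPARG window at chr3:12351167-12351416 held neither core. TTTATN, found in 34.8% of all windows, occurred 2 times in CDX2 and 1 time in GATA6. AGATAA was in 10.3% and TGATAA in 7.53% of all windows, and each of the HNF4A windows held 1 GATA core. Of the 6 PPARG windows, which overlap in part, 3 held CTTTGT, 4 held TTTATN and 2 held a GATA core. The PPARG windows from 12288810 and from 12288820 share the same CTTTGT and the same TTTATN. The HNF4 motif CAAAGTCCA was in 0.384% of all windows and in none of the 11 windows of the factors. These are matches of letters only.

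Butyrate moved the nuclear receptors in opposite directions. In NaB against Ctl, VDR rose and PPARG fell, and these 2 of the 7 factors tested were called, at a fold over 2 and an adjusted p under 0.01. Of all genes tested 32.4% were called in this comparison, 21% higher and 11.5% lower. In DoxyNaB against Doxy, VDR was higher and PPARG and FOXA2 were lower, 3 of 7 factors, FOXA2 near the limit of detection, with 31.1% of all genes called, 18.7% higher and 12.5% lower. The share of factors called, 28.6% and 42.9% of only 7 genes, was not far from that of all genes. The median change of the factors was 0.30 and 0.20 on the log2 scale, beside 0.17 and 0.11 for the 15159 genes. Another scaling set each array to its median over all 34127 probes, dim ones included, after a floor of 5 on the signal. It moved the median of the probes tested by -0.91 and -0.65. With it VDR was not called and PPARG, FOXA2 and CDX2 were lower and called. Without the filter, the median change of all probes under the main scaling was 0.69 and 0.50. A filter on all 24 arrays left 15062 probes, with a median of 0.075 in NaB against Ctl. Of these 4006 were called, 57.1% of them higher, against 6014 of 18980 probes and 65.3% with the main filter.

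**Figure D1:**
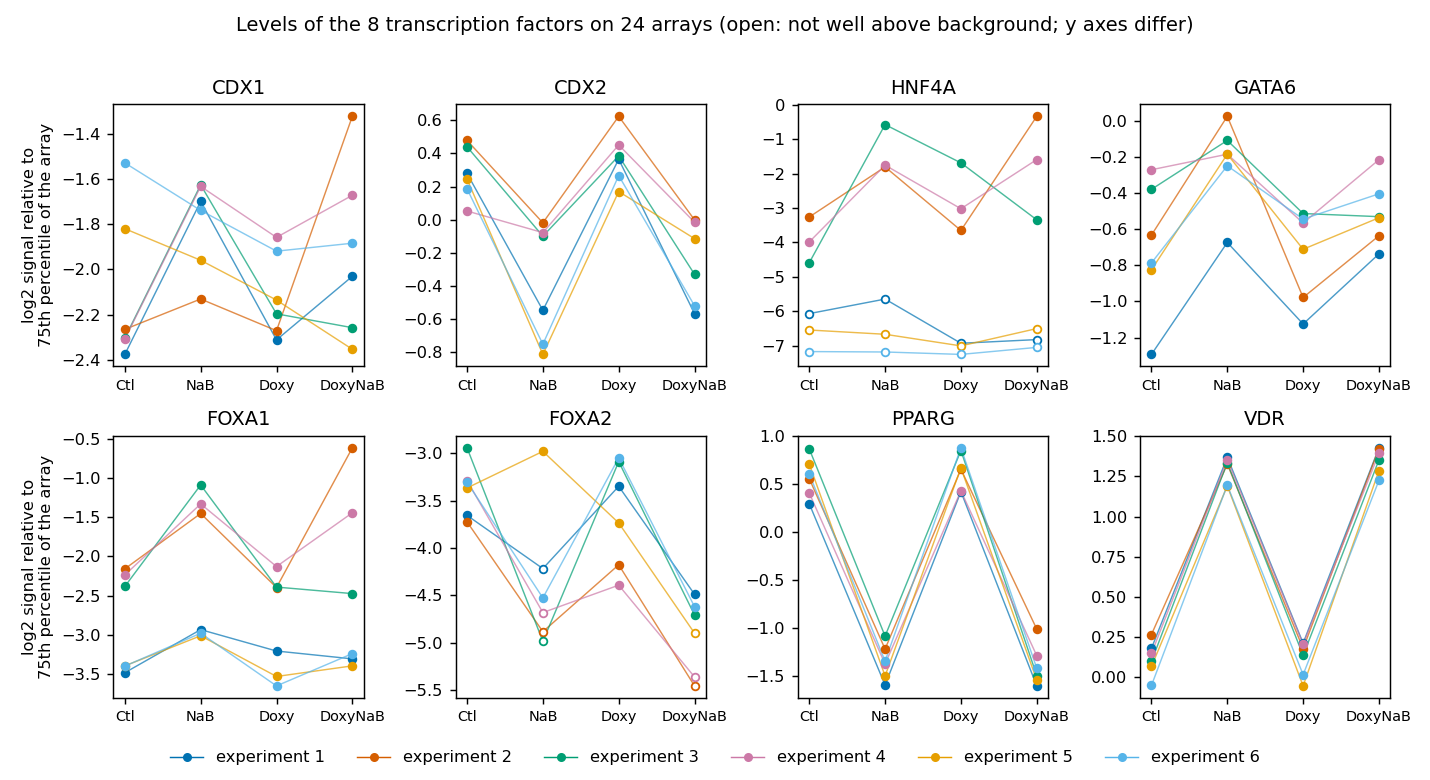
Level of each factor (y axis, log2 signal over the 75th percentile of the same array) under the 4 treatments (x axis), with lines joining the 4 arrays of an experiment and open points for spots that were not well above background. VDR and PPARG separated by butyrate in all 6 experiments, and HNF4A was above background in experiments 2 to 4 only.

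VDR, the vitamin D receptor, had the smallest SD between experiments of the factors tested. Its levels, as log2 signal over the 75th percentile of the same array, ran from -0.05 through a median of 0.12 to 0.27 in Ctl and from 1.19 through 1.33 to 1.37 in NaB. In Doxy they ran from -0.05 through 0.16 to 0.21, and in DoxyNaB from 1.23 through 1.37 to 1.43. Every array with butyrate lay above every array without it. The share of all genes that separated in this way was not computed, here or for the other factors. The rise was 1.18 ± 0.07 (SD, n = 6), or 2.26-fold, without doxycycline (limma, adjusted p = 6.98e-14) and 1.24 ± 0.05, or 2.35-fold, with it (limma, adjusted p = 3.33e-14), and it was seen in 6 of 6 experiments both times. The probe, at chr12:46521769-46521828 of NCBI36, was spotted 10 times, and the SD among its spots had a median of 0.081 on the log2 scale over the arrays. Of all genes tested, 17.4% had a higher change than VDR in NaB against Ctl. With scaling to the median of the array, the rise was 0.27 (adjusted p = 0.27) and 0.59 (adjusted p = 0.022), and VDR was not called.

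PPARG, the fatty acid receptor, fell at both of its probes. At the probe on chr3:12433499-12433558 (NCBI36), also spotted 10 times, levels were 0.30, 0.58 and 0.87 (lowest, median, highest) in Ctl and -1.59, -1.36 and -1.08 in NaB. They were 0.43, 0.66 and 0.88 in Doxy and -1.60, -1.45 and -1.01 in DoxyNaB. The arrays with and without butyrate did not overlap. PPARG fell by 1.93 ± 0.16 (3.80-fold; limma, adjusted p = 2.05e-12) and by 2.04 ± 0.29 (4.12-fold; limma, adjusted p = 8.62e-13), in 6 of 6 experiments each time. The second probe, at chr3:12409128-12409187, lies toward the start of the gene and gave falls of 2.04 ± 0.29 and 2.20 ± 0.29, so the probes differed by less than the spread between experiments. In NaB against Ctl, 2.39% of all genes had a change at or below that of PPARG.

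**Figure D2:**
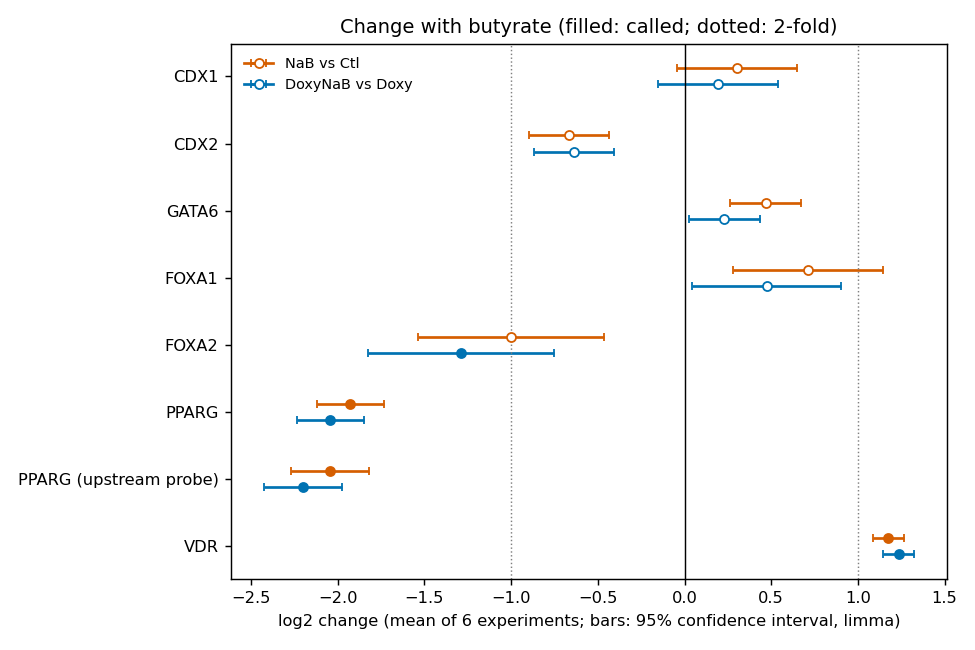
Change of each tested probe with butyrate (x axis, log2 change as the mean of 6 experiments; bars, 95% confidence interval from limma) without doxycycline (NaB vs Ctl) and with it (DoxyNaB vs Doxy); filled points were called. PPARG lay at -1.93 and -2.04 and VDR at 1.18 and 1.24, the latter not called with scaling to the median, and CDX2 was below 0 but short of 2-fold.

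Of the caudal homeodomain factors, CDX2 was lower with butyrate, while the interval of the change of CDX1 held 0. CDX2 levels were 0.05, 0.26 and 0.48 in Ctl and -0.81, -0.32 and -0.02 in NaB. They were 0.17, 0.38 and 0.62 in Doxy and -0.57, -0.22 and -0.0013 in DoxyNaB. No array with butyrate reached an array without it, though the nearest lay at -0.0013 and 0.05. A larger absolute change than that of CDX2 was seen in 50.7% of all genes in NaB against Ctl. The differences were -0.67 ± 0.34 (limma, adjusted p = 2.60e-05) and -0.64 ± 0.23 (limma, adjusted p = 4.43e-05), with lower values in 6 of 6 experiments, but they were 1.59-fold and 1.55-fold and CDX2 was therefore not called. With scaling to the array median they were -1.57 and -1.28, and CDX2 was called. In NaB against Ctl the difference was -0.39 (limma, adjusted p = 0.026) within experiments 2 to 4, which shared a scan date. It was -0.999 (limma, adjusted p = 0.0017) within experiments 5 and 6.

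CDX1 levels at the tested probe (chr5:149543377-149543436) overlapped between all treatments, with medians of -2.28 in Ctl, -1.72 in NaB, -2.17 in Doxy and -1.96 in DoxyNaB. The changes with butyrate were 0.30 ± 0.43 (limma, adjusted p = 0.10) and 0.20 ± 0.41 (limma, adjusted p = 0.29), higher in 4 of 6 experiments. The 95% confidence interval of the first ran from -0.04 to 0.65. Both were below 0 with quantile normalization (-0.43 and -0.36) and with scaling to the median (-0.60 and -0.45). The other CDX1 probe was well above background on 2 or 3 of the 6 arrays of a treatment and was not tested.

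GATA6, a zinc finger factor of gut endoderm and proliferating crypt cells, had levels of -1.29, -0.71 and -0.27 in Ctl and -0.67, -0.19 and 0.02 in NaB. In Doxy they were -1.12, -0.64 and -0.51, and in DoxyNaB -0.74, -0.53 and -0.22. The groups overlapped, yet GATA6 was higher in NaB in 6 of 6 experiments, by 0.47 ± 0.24 (limma, adjusted p = 0.00029). With doxycycline the difference was 0.23 ± 0.16 (limma, adjusted p = 0.041). Neither reached 2-fold, and both were negative with scaling to the median (-0.44 and -0.42).

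The forkhead factors, which open chromatin for other regulators, gave opposite signs. FOXA1 levels were -3.49, -2.89 and -2.16 in Ctl, -3.01, -2.19 and -1.09 in NaB, -3.66, -2.80 and -2.13 in Doxy and -3.40, -2.86 and -0.61 in DoxyNaB. The spread followed the experiments, since without butyrate FOXA1 lay between -2.40 and -2.13 in experiments 2 to 4 and between -3.66 and -3.21 in the others. FOXA1 was higher in NaB by 0.71 ± 0.35 (limma, adjusted p = 0.0045, 6 of 6 experiments) and in DoxyNaB by 0.47 ± 0.71 (limma, adjusted p = 0.045, 4 of 6 experiments). The difference in experiment 2 with doxycycline, 1.79, came with a DoxyNaB array with a negative control signal of 248.9, and that in experiment 3 without doxycycline, 1.30, with a NaB array at 161. Without both arrays the differences were 0.58 and 0.25; the part of the background in them was not tested. They were 0.13 and 0.09 with quantile normalization and -0.20 and -0.18 with scaling to the median.

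FOXA2 levels were -3.72, -3.34 and -2.94 in Ctl and -4.98, -4.60 and -2.98 in NaB. They were -4.39, -3.54 and -3.05 in Doxy and -5.46, -4.80 and -4.49 in DoxyNaB. NaB overlapped with Ctl through the NaB array of experiment 5, whereas all DoxyNaB arrays lay below all Doxy arrays. The NaB array of experiment 5 read -2.98. The difference in DoxyNaB was -1.29 ± 0.26 (limma, adjusted p = 0.00018, lower in 6 of 6 experiments). In NaB the difference was -0.999 ± 0.83 (limma, adjusted p = 0.0018, 5 of 6 experiments), just short of 2-fold, and without experiment 5 it was -1.28 and called. FOXA2 was well above background on 6 of 6 Ctl and Doxy arrays but on 2 of 6 NaB and 3 of 6 DoxyNaB arrays, so it passed the filter only through the groups where it was high, its low levels are close to the limit of detection, and the sizes and p-values of its differences are to be read with that limit. With normexp background correction the differences were -0.54 and 0.05 (adjusted p = 0.83 for the latter), and FOXA2 was called in neither comparison.

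HNF4A, the nuclear receptor that maintains enterocyte genes, was read by 1 probe whose coordinates on NCBI36, chr20:42469516-42475793, span a splice junction. It was well above background on 3 of 6 arrays of every treatment, and these were the arrays of experiments 2 to 4 each time. There its level lay between -4.59 and -1.69 without butyrate and between -3.34 and -0.34 with it. In the other experiments it lay between -7.25 and -5.64 on all arrays. HNF4A did not pass the filter. When all probes were tested without it, the change of HNF4A was 1.33 in NaB against Ctl (limma, adjusted p = 0.045) and 0.65 in DoxyNaB against Doxy (limma, adjusted p = 0.33), and it was called in 0 of the 5 comparisons. No direction is drawn from these values.

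**Figure D3:**
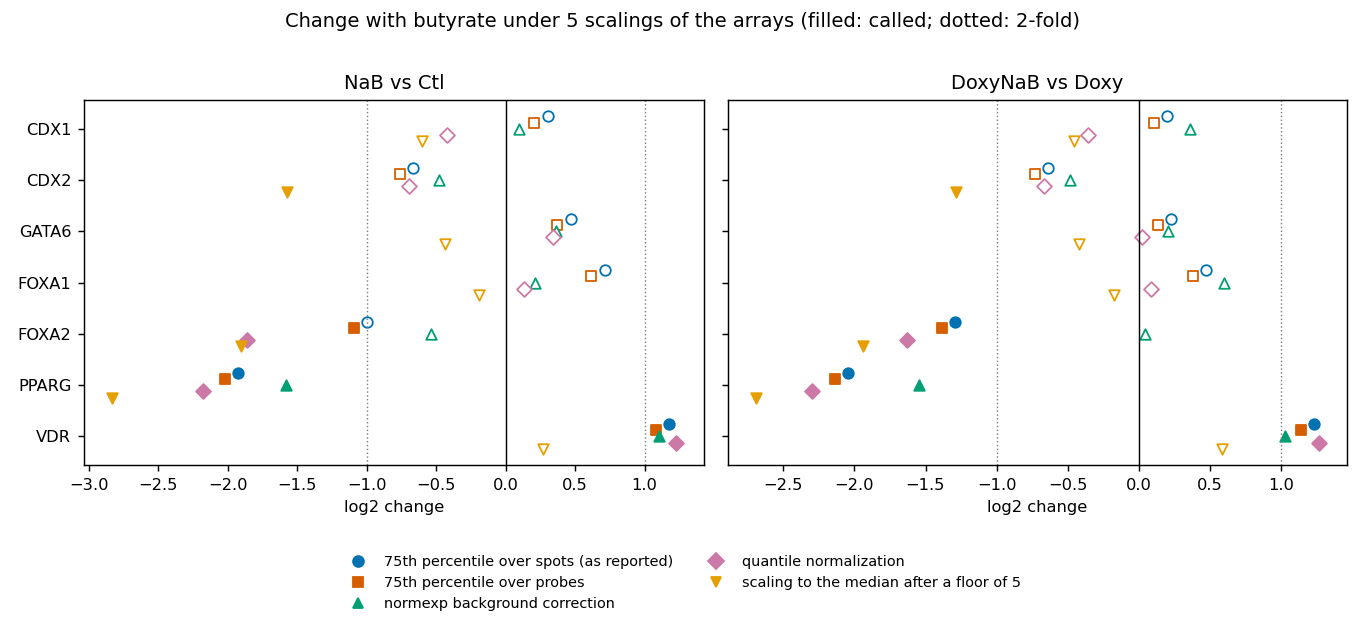
Change of the 7 tested factors with butyrate (x axis, log2 change) under 5 ways of scaling the arrays (symbols), without doxycycline (left) and with it (right); filled symbols were called. PPARG was called below -1 under all 5, while CDX1, GATA6 and FOXA1 crossed 0 with scaling to the median, which moved the median of the probes tested by -0.91 and -0.65.

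Doxycycline, alone or on top of butyrate, gave no called change in any factor. The study's western blot showed minimal DN-Tcf4 with doxycycline alone and high levels with both agents. Doxy against Ctl therefore compares cells with little of the inhibitor protein. The study's reporter assay still gave a lower Wnt activity ratio with doxycycline alone than in untreated cells. AXIN2 changed by -0.58 in Doxy against Ctl (limma, adjusted p = 0.0029), though it was not called with normexp, quantile or median scaling. No lack of response to DN-Tcf4 is drawn from this comparison. In DoxyNaB against Doxy, and so in the interaction, the level of DN-Tcf4 differed along with butyrate. In Doxy against Ctl, 0 of 7 factors passed an adjusted p under 0.01 in limma, with 0.554% of all genes called, and 0 had an unadjusted p under 0.05. In DoxyNaB against NaB, AXIN2 changed by -2.53 (limma, adjusted p = 2.63e-11), and 6 of 10 known Wnt targets tested, AXIN2 included, were called lower. Of the factors 0 of 7 passed in that comparison, with 2.72% of all genes called, and 2 had an unadjusted p under 0.05. These were GATA6, with a difference of -0.28 ± 0.24 (limma, adjusted p = 0.13, lower in 6 of 6 experiments), and FOXA2, with -0.54 ± 0.76 (limma, adjusted p = 0.32). Without experiment 5 the FOXA2 difference was -0.27, and with normexp it was 0.35. VDR was higher in DoxyNaB than in NaB in 6 of 6 experiments, by 0.06 ± 0.03 (limma, adjusted p = 0.62). The paired test of the study's methods put VDR past its unadjusted threshold here, and no factor in the other doxycycline comparisons. In DoxyNaB against NaB that test called 1024 of the 18980 probes without adjustment. After adjustment it called 25 probes, and VDR was not among them.

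The butyrate response with doxycycline minus that without it was called in 0 of 7 factors, with 1.35% of all genes called and 0 factors at an unadjusted p under 0.05. The confidence intervals measure the spread between experiments under the main scaling only, and do not cover a change of processing. For VDR the difference was 0.06 with a 95% confidence interval from -0.07 to 0.19, and for PPARG it was -0.12 with an interval from -0.39 to 0.16. For CDX2 it was 0.03, from -0.30 to 0.36. The intervals of FOXA1, from -0.85 to 0.37, and of FOXA2, from -1.05 to 0.47, were wider. With normexp background correction the interactions of FOXA1, FOXA2 and VDR lay outside these intervals.

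**Figure D4:**
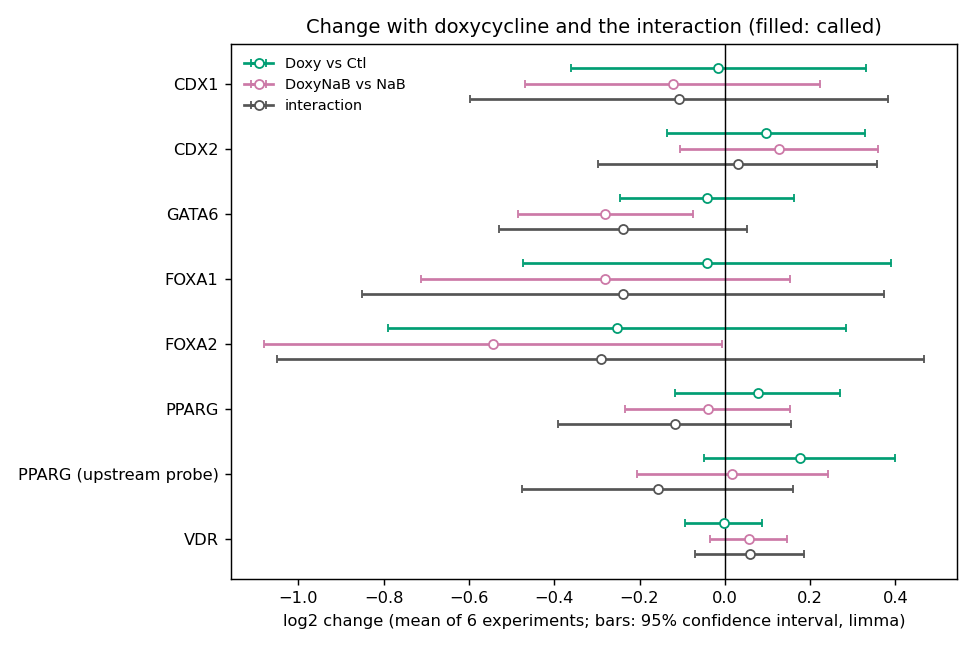
Change of each tested probe with doxycycline without butyrate (Doxy vs Ctl) and with it (DoxyNaB vs NaB), and the interaction (x axis, log2 change as the mean of 6 experiments; bars, 95% confidence interval from limma). No point was called, and VDR had the narrowest intervals, from -0.07 to 0.19 for the interaction.

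Of the 7 paralogs of the factors 3 were tested, and 1 was called in NaB against Ctl, beside 32.4% of all genes. Their median was 0.15. PPARD, a receptor of the PPARG family, rose by 1.46 ± 0.17 and 1.51 ± 0.26 (limma, adjusted p = 2.32e-10 and 1.43e-10), opposite to PPARG, though not called with scaling to the median (0.55 and 0.86). The changes of PPARA were 0.15 ± 0.11 and 0.46 ± 0.26 and those of FOXA3 -0.65 ± 1.14 and -0.87 ± 1.04, and none of these was called with all experiments; without experiment 2 FOXA3 was -1.22 in DoxyNaB against Doxy and called. CDX4, HNF4G, GATA4 and GATA5 did not pass the filter.

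Among 16 other gut epithelial transcription factors, 10 were tested, and 1 was called in NaB against Ctl, beside 32.4% of all genes. This was the membrane-bound factor CREB3L3, which rose by 2.86 ± 0.64 (limma, adjusted p = 1.49e-10). The median of the 10 was 0.37. Of this list 2 passed the test of the interaction, as did 1.35% of all genes. ELF3, an epithelial Ets factor, was higher with butyrate by 0.21 ± 0.18 without and 0.93 ± 0.16 with doxycycline, short of 2-fold, a difference of 0.72 (limma, adjusted p = 0.00019). KLF4, a factor of differentiated colonocytes, had differences of 0.53 ± 0.14 and -0.28 ± 0.15, also short of 2-fold, and an interaction of -0.80 (limma, adjusted p = 8.64e-05). KLF4 was also called in Doxy against Ctl, at 0.46, and in DoxyNaB against NaB, at -0.34 (limma, adjusted p = 0.0011 and 0.0055). ELF3 was called in the latter only, at 0.56 (limma, adjusted p = 2.69e-05). Neither interaction, and none of these doxycycline differences, was called with normexp or with scaling to the median. The interaction of KLF4 was not called with quantile normalization.

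Among the partners of the nuclear receptors, 3 of 10 tested genes were called in NaB against Ctl, near the 32.4% of all genes. Their median was -0.29. RXRA, the retinoid X receptor that pairs with VDR and PPARG, fell by 1.16 ± 0.22 and 1.14 ± 0.26 (limma, adjusted p = 5.47e-09 and 6.88e-09). The coactivator NCOA1 rose by 1.42 ± 0.16 and NCOA3 by 1.08 ± 0.30 in NaB (limma, adjusted p = 4.30e-12 and 7.27e-06). Without experiment 5, the NCOA3 change in NaB was 0.996 and not called. RXRA was not called with normexp (-0.95 and -0.52), NCOA1 was not called with scaling to the median (0.51 and 0.68) or, in NaB, with normexp (0.86), and NCOA3 was not called with normexp, quantile or median scaling in either comparison.

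Targets of the receptors did not move as a block. Of 8 VDR targets 4 were tested, and 3 were called in NaB against Ctl, where 32.4% of all genes were called. CYP24A1, the vitamin D 24-hydroxylase, fell by 2.18 ± 0.16 (limma, adjusted p = 6.88e-14), while the calcium channel TRPV6 rose by 2.40 ± 0.39 and CD14 by 1.35 ± 0.26 (limma, adjusted p = 3.33e-08 and 0.00012). On only 3 of 6 Ctl arrays TRPV6 stood well above background, so it did not pass the filter through Ctl. Its Ctl levels are near the limit of detection, and the size and p-value of its rise are to be read with that limit. With normexp TRPV6 (0.83) and CD14 (0.35) were not called. CD14 was not called with quantile (0.12) or median scaling (0.45) either. Of 12 PPARG targets 5 were tested and 3 called, beside the same 32.4% of all genes. ANGPTL4, an inhibitor of lipoprotein lipase, rose by 2.84 ± 0.26 and PDK4 by 1.47 ± 0.59, while the lipid droplet protein PLIN2 fell by 2.14 ± 0.17 (limma, adjusted p = 1.16e-13, 3.94e-06 and 3.80e-12). PDK4 was not called with normexp (0.54), quantile (0.50) or median scaling (0.56).

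For HNF4A, 3 of 12 targets were tested. APOA1 rose by 1.63 ± 0.45 and F12 fell by 2.13 ± 0.10 (limma, adjusted p = 1.83e-06 and 1.36e-15), and APOA1 was not called with normexp (0.66), quantile (0.91) or median scaling (0.73). For the CDX factors 1 of 14 targets was tested, the goblet cell mucin MUC2, with 0.91 ± 0.50 in NaB (limma, adjusted p = 0.0014), short of 2-fold, and with -0.05 under quantile normalization. Without experiment 5 it was 1.01 and called.

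**Figure D5:**
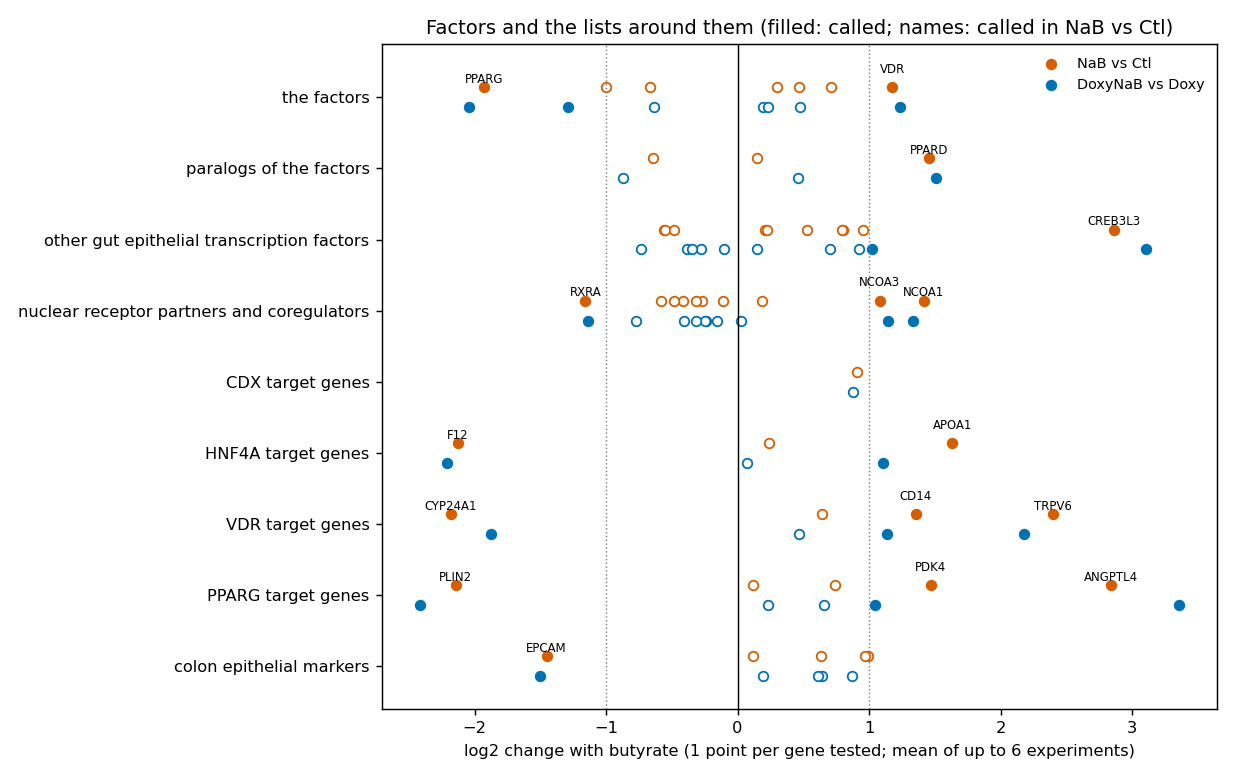
Change with butyrate (x axis, log2 change as the mean of up to 6 experiments) of every tested gene of the factors and the lists around them (rows), without doxycycline (orange) and with it (blue); filled points were called. VDR and PPARG targets lay on both sides of 0, with CYP24A1 at -2.18 and -1.88, PLIN2 at -2.14 and -2.41, TRPV6 at 2.40 and 2.18 and ANGPTL4 at 2.84 and 3.36 without and with doxycycline.

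Markers of other cell types were set beside these changes. Of 6 fibroblast markers 1 was tested, COL1A1, which rose by 1.09 ± 0.23 over 5 experiments (0.59, 0.83 and 0.20 and not called with normexp, quantile and median scaling), and COL3A1 was well above background on 0 arrays. The signal summed over that list, relative to the 75th percentile, ran from 0.35 to 0.524 in Ctl, from 0.227 to 1.09 in NaB, from 0.264 to 0.525 in Doxy and from 0.747 to 1.36 in DoxyNaB. The endothelial marker VWF rose by 2.77 ± 0.47 in NaB (limma, adjusted p = 9.92e-10), and with normexp its change was 0.91 and not called. The summed signal of the 10 colon epithelial markers ran from 209.1 to 298.9 in Ctl and from 273.8 to 501.3 in NaB, from 214.9 to 296.0 in Doxy and from 252.8 to 371.7 in DoxyNaB. Of 7 liver and stomach markers 1 was tested and 0 called, and their sum ran from 0.109 to 0.339 in Ctl, from 0.159 to 1.70 in NaB, from 0.117 to 0.554 in Doxy and from 0.174 to 2.23 in DoxyNaB. Of the colon markers 1 of 5 tested was called in NaB against Ctl, beside 32.4% of all genes. This was EPCAM, an epithelial adhesion molecule, which fell by 1.45 ± 0.40 over 5 experiments (limma, adjusted p = 3.62e-05). The median of the 5 went the other way, at 0.63, with a highest change of 0.99. With normexp 2 of the 5 were called higher and 1 lower. The part of these markers in the changes of the factors was not tested.

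The genes most like the called factors over the 24 arrays, after the mean of each experiment was subtracted, were LRIG1 (Pearson r = 0.998), DACT3 (0.998) and ULBP2 (0.997) for VDR. For PPARG they were HMGA2 (0.996), KCNN4 (0.994) and NSMAF (0.994). The arrays separated by butyrate, and 2178 and 1403 of the 12747 genes compared had an r over 0.95 with VDR and PPARG. FOXA2 had no gene over that value, and BLOC1S6 (0.910), MDFIC (0.889) and SYK (0.881) were nearest.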

How the data were processed

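The 24 arrays were grouped by the treatment in the labels, with the experiment number as replicate. The deposited files, written by Agilent Feature Extraction 9.5.3.1 per the file headers, hold spot intensity on NCBI36 (hg18); the authors' processed signal intensity is background-subtracted and detrended within an array, and not scaled between arrays. Spot flags (other) were deposited too. The genes and lists were chosen with earlier results of these data known.

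Control and outlier spots were left out (359 to 795 of the latter per array), spots of a probe averaged, and the log2 signal taken relative to the 75th percentile of the array (380.2 to 1323). Saturation touched 0 to 3 spots of an array; the number of arrays limits the precision. Probes entered the tests when every array of 1 or more treatments read them well above background, and a gene was represented by its brightest probe. The linear models ran in limma 3.58.1 (R 4.3.3) on all 24 arrays, with the experiment as a block, as the study's paired test implies, and Benjamini-Hochberg adjustment over all probes. Butyrate comparisons were called at a fold over 2 and an adjusted p under 0.01, the others at the latter alone. Same-experiment deviations correlated between 0.219 and 0.853, except for -0.224 between NaB and DoxyNaB of experiment 3. SDs are over experiments, all of 1 clone, so p-values measure the spread between these experiments only. The named genes are the factors, their paralogs, from each other list those with a called interaction and the 4 largest called changes in NaB against Ctl, and the 3 genes most like each called factor. The fit was tested on simulated data. Python 3.11.15, pandas 2.3.3 and matplotlib 3.10.9 made tables and plots. Alternatives covered background correction, scaling, filter, block, slide, single experiments, batches and the methods' t-test. The result of 1 list of markers is not reported here.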

Additional observations from a re-analysis of the deposited data

Results flagged for a closer look

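Of 40 groups of 6 arrays, 1 held a value far apart from the rest, where chance gives about 1 in 20. The dim CDX1 probe that was not tested read -0.69 on the Ctl array of experiment 5, against -4.63 on the next highest Ctl array. Of the 7 factors tested, 0 passed the test of the interaction in limma. In the surrounding lists the response of ELF3 differed by 0.72, that of KLF4 by -0.80 and that of AXIN2 by -1.95 on the log2 scale, as tested by the interaction.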

How the results depend on the processing

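The number of factors called in NaB against Ctl lay between 2 and 3 under all settings except a fold over 1.5, which gave 5, and that in DoxyNaB against Doxy between 2 and 4. PPARG was called under all settings, and VDR under all but scaling to the median. The count in DoxyNaB against NaB was 1 under the methods' paired test without adjustment (VDR) and 0 otherwise; after adjustment that test gave 2, 3, 0, 0 and 0 factors in NaB against Ctl, DoxyNaB against Doxy, Doxy against Ctl, DoxyNaB against NaB and the interaction. Without the replicate block the counts were 2, 3, 0, 0 and 0, and no call of a factor changed. FOXA2 was not tested with the filter on all 24 arrays.

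Signs turned as follows, and the cause was not tested. With normexp, DoxyNaB against NaB was 0.18 for CDX1, 0.22 for FOXA1, 0.35 for FOXA2, 0.16 for PPARG and -0.058 for VDR, the interaction was 0.27 for CDX1, -0.0011 for CDX2, 0.39 for FOXA1, 0.58 for FOXA2, 0.033 for PPARG and -0.078 for VDR, Doxy against Ctl was 0.032 for GATA6 and 0.020 for VDR, and DoxyNaB against Doxy was 0.046 for FOXA2. With quantile normalization, CDX1 was -0.43 in NaB against Ctl, -0.36 in DoxyNaB against Doxy, 0.023 in DoxyNaB against NaB and 0.070 in the interaction, and the FOXA2 interaction was 0.23. With scaling to the median, NaB against Ctl was -0.60 for CDX1, -0.20 for FOXA1 and -0.44 for GATA6, DoxyNaB against Doxy was -0.45, -0.18 and -0.42, the interaction was 0.15 for CDX1, 0.019 for FOXA1, 0.019 for GATA6 and 0.14 for PPARG, Doxy against Ctl was -0.029 for CDX2 and -0.049 for PPARG, and DoxyNaB against NaB was 0.0096 for CDX1 and 0.091 for PPARG. In experiments 2 to 4 only, CDX1 was 0.18 in Doxy against Ctl and 0.046 in DoxyNaB against NaB, CDX2 was -0.050 in DoxyNaB against NaB and -0.21 in the interaction, the FOXA2 interaction was 0.24 and VDR was 0.0023 in Doxy against Ctl. In experiments 5 and 6 only, CDX1 was -0.18 in NaB against Ctl, -0.091 in DoxyNaB against Doxy and 0.084 in the interaction, GATA6 was 0.18 in Doxy against Ctl, and FOXA2 in DoxyNaB against Doxy (-1.37, adjusted p = 0.053) was not called.

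Leaving out 1 experiment at a time, Doxy against Ctl ranged from -0.10 to 0.019 for GATA6, -0.016 to 0.021 for VDR, -0.11 to 0.060 for CDX1 and -0.11 to 0.00042 for FOXA1, the interaction from -0.29 to 0.019 for CDX1 and -0.12 to 0.10 for CDX2, DoxyNaB against NaB from -0.090 to 0.034 for PPARG and -0.71 to -0.27 for FOXA2, and NaB against Ctl from -1.28 to -0.79 for FOXA2. FOXA2 was called in NaB against Ctl without experiment 1 (-1.09) or 5 (-1.28), with the slide as block (-1.06), in experiments 2 to 4 (-1.53), with quantile normalization (-1.86), with median scaling (-1.91) and with the percentile taken over probes (-1.09), a setting added after the data were seen. The share of higher values among all called probes was 65.3% in NaB against Ctl and 59.9% in DoxyNaB against Doxy, 43.8% and 42.9% with quantile normalization, and 15.9% and 21.1% with median scaling. With normexp it was 53.2% and 59.3%. Over all probes, 6014, 5803, 95, 471 and 235 were called in the comparisons as ordered above, but 3001, 3628, 21, 109 and 43 with normexp. For Doxy against Ctl, DoxyNaB against NaB and the interaction the counts were 3, 29 and 7 with median scaling and 36, 176 and 85 without the replicate block.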
